A study of Mus musculus with 31 samples.

Results

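The 10 genes described here encode receptor chains for colony-stimulating factors and related growth and regulatory cytokines: Csf1r, Csf2ra, Csf2rb, Csf2rb2, Csf3r, Il3ra, Flt3, Il6ra, Il4ra and Il10ra. They were chosen by symbol from a deposited table of estimated read counts with 24411 entries, and all 10 passed the filter on low counts. Expression was measured by RNA-seq in Ly6C-high monocytes of C57BL/6J mice, sorted as CD11b-positive, Ly6G-negative and MHC-II-negative cells. There were 3 libraries from blood of healthy animals (healthy blood), 3 from the blood of mice carrying subcutaneous Lewis lung carcinoma (LLC blood) and 3 from the LLC tumors themselves (LLC tumor). LLC is a transplantable mouse lung carcinoma cell line. The labels name no genetic modification or drug, and give no age or sex. They also do not say whether cells of several mice were pooled or whether the replicates came from separate mice, so p-values measure the spread between these libraries, which may be technical. The 22 other samples of the series, which profile chromatin of blood monocytes, were not analysed here.

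Colony-stimulating factors are the cytokines that produce myeloid cells and keep them alive. Csf1r is a receptor tyrosine kinase for CSF1 and IL-34 and marks the monocyte and macrophage lineage, Csf3r binds the neutrophil factor G-CSF, and Flt3 is a receptor tyrosine kinase of progenitors and dendritic cells. The receptor for GM-CSF pairs a ligand-binding alpha chain, Csf2ra, with the common beta chain Csf2rb, which IL-3 and IL-5 receptors also use, and mice carry a duplicate beta chain, Csf2rb2, that serves IL-3 with the alpha chain Il3ra. Il6ra, Il4ra and Il10ra are the ligand-binding chains for IL-6, for IL-4 and IL-13, and for IL-10, and they signal with Il6st (gp130), with Il2rg or Il13ra1, and with Il10rb.

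Total counts were 10457492 to 20706412 per library, and every member had at least 26 counts in every library. Levels are CPM, a gene's counts scaled to a fixed library total. Fold changes come from a model that also scales for composition (TMM). A gene was called at a Benjamini-Hochberg adjusted p under 0.05 over all genes tested. The TMM factor was 0.798 in LLC tumor 1 and 0.968 to 1.07 in the other libraries. With library totals alone the median of all genes moved to -0.23 on the log2 scale for LLC tumor against LLC blood and to -0.17 for LLC tumor against healthy blood. Markers of the sorted cell were present in every library: the 8 genes fixed for Ly6C-high monocytes summed to 16436 to 17497 CPM in healthy blood, 17162 to 18674 CPM in LLC blood and 15620 to 18966 CPM in LLC tumor, with none at 0. Of these, Ly6c2 was at 1571 to 1728 CPM in blood of healthy animals and at 272 to 472 CPM in tumor. The entries Pira7, Gm10052 and Tgoln2 were at 0 in every healthy blood library and at 10 CPM or more in every LLC library, Pira1 was the reverse, and 0 entries did so between LLC blood and LLC tumor. The sources used here do not say whether all libraries were counted against the same gene models, and such a difference cannot be told apart from healthy against LLC mice.

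In the circulation of tumor-bearing animals the beta chains Csf2rb and Csf2rb2, the IL-6 receptor gene Il6ra and the IL-4 receptor gene Il4ra rose, while Csf2ra and Flt3 fell. In tumor monocytes against LLC blood the beta chains and Il4ra rose again, while Csf3r, Il3ra, Flt3 and Il6ra fell. Of the 10 members, 4 were called higher and 2 lower in LLC blood against healthy blood (edgeR quasi-likelihood test), where 23.6% of 12337 genes tested were called, 14.0% higher and 9.61% lower. In LLC tumor against LLC blood 3 were called higher and 4 lower against a background of 61.3% (29.6% higher and 31.7% lower). In LLC tumor against healthy blood 3 were called higher and 6 lower against a background of 66.5% (33.5% higher and 33.0% lower). The 7 of 10 in the second comparison is close to its background, and counts there say little about these genes as a set. Changes of at least 2-fold among the called genes were found for Il4ra in LLC blood against healthy blood, where 6.23% of all genes changed as much, and for Csf2rb2, Il4ra, Csf3r, Flt3 and Il6ra in LLC tumor against LLC blood, where 28.7% did. In LLC tumor against healthy blood they were found for Csf2rb, Csf2rb2, Il4ra, Csf3r and Flt3, beside 32.3% of all genes. Libraries of the groups compared did not overlap in CPM for 8 members in the blood comparison (51.4% of all genes), for 10 in the second (68.3%) and for 10 in the third (70.6%). The median log2 fold change over the members was -0.08, -0.29 and -0.60 in the 3 comparisons, beside -0.0092, -0.034 and -0.0025 over all genes. The comparisons share libraries pairwise, so their values for a gene are not independent of each other.

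**Figure D1:**
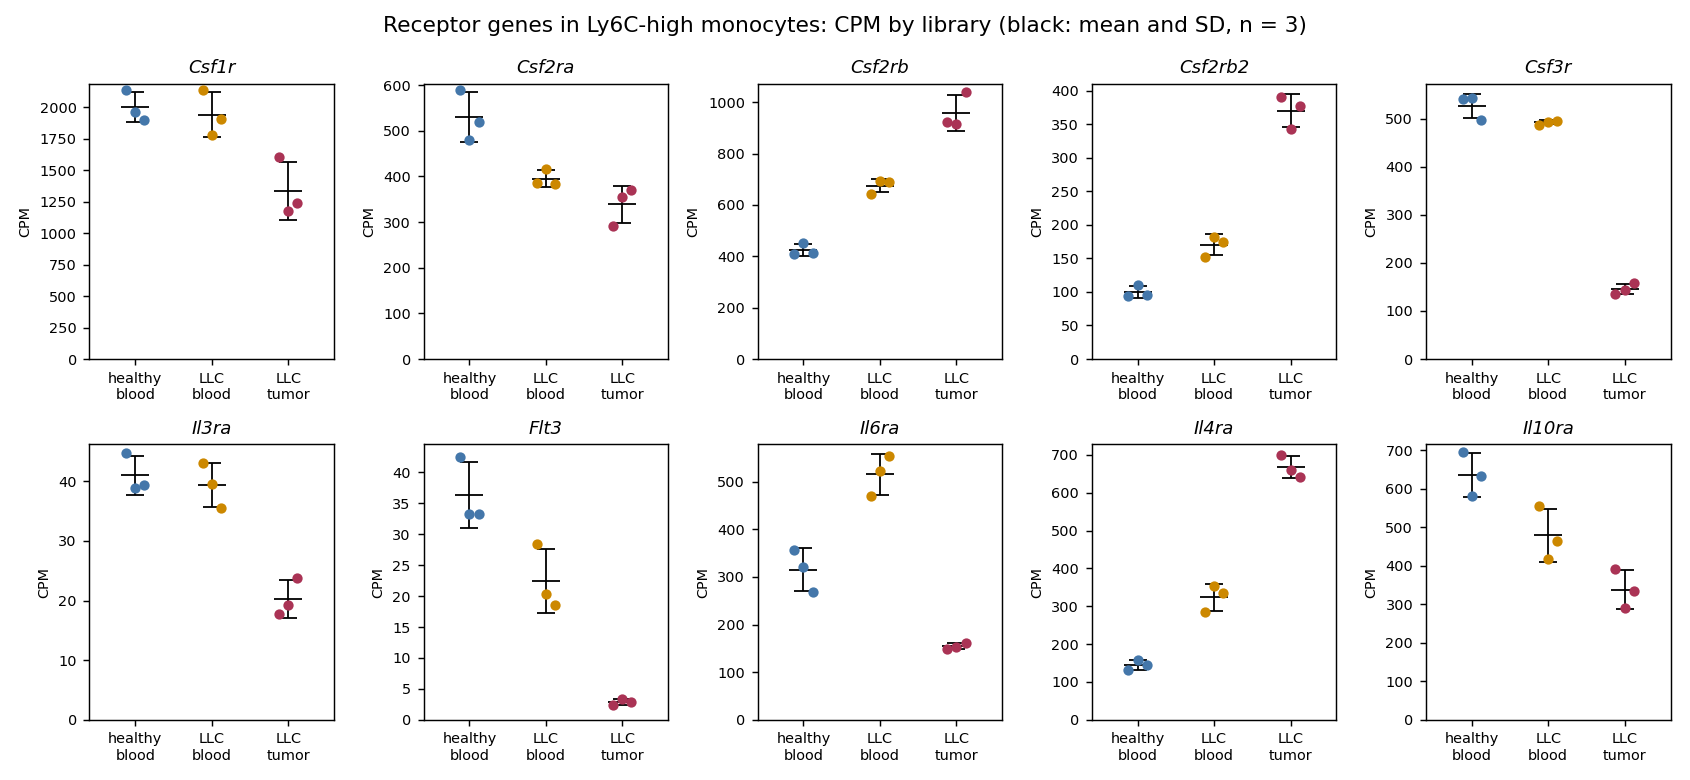
CPM of each of the 10 receptor genes (y axis, linear, from 0) in the 3 libraries of each group (x axis), with 1 point per library and black bars for the mean and SD. Il4ra, Csf2rb and Csf2rb2 step up from healthy blood to LLC blood to LLC tumor with no overlap between groups, Il6ra is highest in LLC blood, and Csf3r and Flt3 are lowest in tumor.

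Promoter sequence is shown for the pair of risers whose profiles lay closest together, Csf2rb2 and Il4ra, and for 2 genes that fell sharply in tumor, Csf3r and Il6ra. RefSeq promoters (GRCm38) were found for 7 of the 10 members, and the 250 bases before the annotated start are given 5′ to 3′ on the gene's strand. The Csf3r window lies inside the span of the gene, because the start used is not its outermost. Capitals mark matches, on either strand, to any of 6 letter patterns: GAGGAAGT (bound by PU.1), TTCNNNGAA (STAT5), the same arms with the gap 1 base longer (STAT6), TTGCNNAA (C/EBP), TGANTCA (AP-1) and ACGTG (hypoxia-inducible factors).
Csf2rb2, chr15:78305722-78305971, minus strand: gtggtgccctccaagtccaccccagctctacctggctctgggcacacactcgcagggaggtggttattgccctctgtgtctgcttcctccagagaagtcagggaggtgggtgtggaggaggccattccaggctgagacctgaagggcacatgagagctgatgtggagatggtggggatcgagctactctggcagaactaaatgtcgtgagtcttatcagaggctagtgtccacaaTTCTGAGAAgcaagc
Il4ra, chr7:125552021-125552270, plus strand: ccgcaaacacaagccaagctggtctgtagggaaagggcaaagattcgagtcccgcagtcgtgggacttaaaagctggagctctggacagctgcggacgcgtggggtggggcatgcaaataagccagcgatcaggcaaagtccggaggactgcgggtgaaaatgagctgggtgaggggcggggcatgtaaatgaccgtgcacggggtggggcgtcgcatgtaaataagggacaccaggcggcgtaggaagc
Csf3r, chr4:126024409-126024658, plus strand: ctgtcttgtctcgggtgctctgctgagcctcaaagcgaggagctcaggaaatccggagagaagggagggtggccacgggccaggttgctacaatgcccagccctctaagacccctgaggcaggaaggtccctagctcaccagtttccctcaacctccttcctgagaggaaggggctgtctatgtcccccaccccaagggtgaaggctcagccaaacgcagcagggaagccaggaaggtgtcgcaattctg
Il6ra, chr3:89913197-89913446, minus strand: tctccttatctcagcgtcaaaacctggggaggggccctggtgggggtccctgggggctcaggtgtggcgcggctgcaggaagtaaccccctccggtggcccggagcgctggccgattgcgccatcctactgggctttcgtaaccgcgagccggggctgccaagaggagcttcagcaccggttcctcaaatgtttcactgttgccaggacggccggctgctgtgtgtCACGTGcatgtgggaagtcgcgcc
The Csf2rb2 window held 1 STAT5 pattern, from 15 to 7 bases before the start, and 7.02% of all 32851 promoter windows of this length held at least 1. The Il6ra window held the hypoxia pattern on both strands in a single overlapping run from 24 to 19 bases before the start, and 16.6% of all windows held it. None of the 6 patterns was found in the Il4ra, Csf3r and Flt3 windows. Outside the printed windows, Csf2ra held 1 hypoxia pattern and Il3ra 1 C/EBP pattern, the latter found in 9.56% of all windows. The Il3ra window, like that of Csf3r, lies inside the span of its gene, and the Csf2ra window partly overlaps its gene. The PU.1 pattern was in 2.44%, the STAT6 pattern in 5.85% and the AP-1 pattern in 6.75% of all windows and in 0 of the 7. A match describes letters only and was not related to binding in these cells.

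The gene Csf2rb (ENSMUSG00000071713) is annotated on chromosome 15, 78325800 to 78351001 (GRCm38). Csf2rb, the signalling chain shared by the GM-CSF, IL-3 and IL-5 receptors, rose at each step. It was at 409.7, 452 and 412 CPM in healthy blood 1 to 3, 644, 692 and 689 CPM in LLC blood and 925, 914 and 1040 CPM in LLC tumor. Every LLC blood library lay above every healthy blood library, and every tumor library above every LLC blood library. The rise was 1.56-fold in blood (log2 fold change 0.64 ± 0.11 SE, adjusted p 0.00285) and 1.64-fold from LLC blood to tumor (log2 fold change 0.71 ± 0.11 SE, adjusted p 0.000296), which came to 2.56-fold from healthy blood to tumor (log2 fold change 1.35 ± 0.11 SE, adjusted p 4.92e-06). In bulk libraries a change in RNA per cell and a change in the share of cells that express a gene cannot be told apart.

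The gene Csf2rb2 (ENSMUSG00000071714) is annotated on chromosome 15, 78282507 to 78305721 (GRCm38). Csf2rb2, the duplicate beta chain for IL-3, lies beside Csf2rb and rose more in tumor. Its levels were 93.8, 109.6 and 95.6 CPM in healthy blood, 152, 183 and 175 CPM in LLC blood and 391, 342 and 377 CPM in LLC tumor, with no overlap between groups. The rise was 1.67-fold in blood (log2 fold change 0.74 ± 0.14 SE, adjusted p 0.00452) and 2.52-fold from LLC blood to tumor (log2 fold change 1.34 ± 0.14 SE, adjusted p 2.84e-05). Both beta chain genes had counts that were not whole numbers in all 9 libraries, so reads were divided between features and how the pair shares them is uncertain. Summed as 1 gene, an alternative chosen after the data had been seen, the pair was at 524 ± 32.6, 845 ± 42.3 and 1330 ± 81.5 CPM (SD, n = 3). The summed pair rose in blood (log2 fold change 0.66 ± 0.12 SE, edgeR adjusted p 0.00375) and from LLC blood to tumor (0.86 ± 0.12 SE, adjusted p 0.00016), so both rises stood without the split.

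Neither alpha chain was called higher at any step. The gene Csf2ra (ENSMUSG00000059326) is annotated on chromosome 19, 61217191 to 61228461 (GRCm38). Csf2ra, which gives the GM-CSF receptor its ligand specificity, was at 588, 481 and 520.2 CPM in healthy blood, 386, 417 and 383 CPM in LLC blood and 292, 355 and 369 CPM in LLC tumor. It fell 1.37-fold in LLC blood (log2 fold change -0.45 ± 0.09 SE, adjusted p 0.00788), with every LLC blood library below every healthy one. From LLC blood to tumor no change was called (log2 fold change -0.03 ± 0.09 SE, adjusted p 0.803, 95% interval -0.24 to 0.18), although the CPM did not overlap, and the sign of that value turned with scaling: 0.03 with DESeq2 size factors and -0.22 with library totals. In tumor against healthy blood it was 1.39-fold lower (log2 fold change -0.48 ± 0.09 SE, adjusted p 0.00132).

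The gene Il3ra (ENSMUSG00000068758) is annotated on chromosome 14, 14345912 to 14355493 (GRCm38). Il3ra, the IL-3 alpha chain, was at 44.8, 38.9 and 39.4 CPM in healthy blood, 43.0, 39.5 and 35.5 CPM in LLC blood and 17.7, 19.2 and 23.8 CPM in LLC tumor. The blood groups overlapped and were not called different (log2 fold change -0.09 ± 0.11 SE, adjusted p 0.606, 95% interval -0.34 to 0.16). Tumor libraries all lay below the blood libraries, 1.69-fold lower than LLC blood (log2 fold change -0.76 ± 0.12 SE, adjusted p 0.000352).

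Counts of these chains were also related within a library, where scaling between libraries has no part. The size of such a ratio depends on transcript lengths, so only its change between groups is described. The ratio of Csf2ra counts to the summed beta chain counts was 1.17, 0.856 and 1.03 in the healthy blood libraries, 0.484, 0.477 and 0.443 in those of LLC blood and 0.222, 0.283 and 0.261 in those of LLC tumor. It dropped 2.16-fold in blood and a further 1.84-fold in tumor, 3.97-fold in all, with no overlap at either step. The sum includes Csf2rb2, which serves IL-3 with Il3ra. Csf2rb2 made up a mean of 19.0% of the sum in healthy blood, 20.1% in LLC blood and 27.9% in LLC tumor. The ratio of Csf2rb2 to Csf2rb was 0.235 ± 0.00717, 0.251 ± 0.0137 and 0.387 ± 0.0320 (SD, n = 3) in the same order. The blood groups overlapped in it and the tumor libraries all lay above them. In exact two-sided permutation tests of 3 against 3 libraries the smallest p that can be reached is 0.1. Of 18 ratio comparisons, 15 had no overlap between groups and an exact permutation p of 0.1 (0.12 adjusted over the 18), so none passed 0.05.

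**Figure D2:**
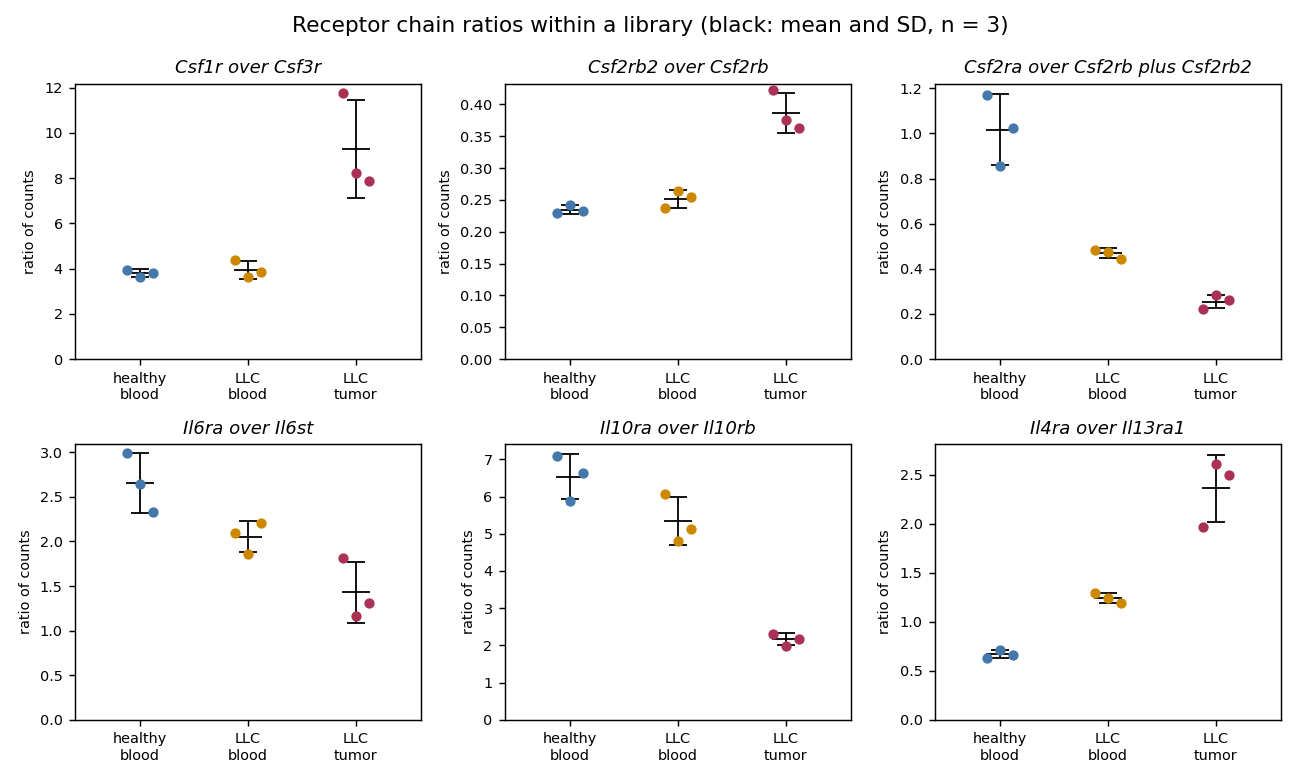
Ratios of read counts between receptor chains within each library (y axis, linear, from 0) for the 3 groups (x axis), with 1 point per library and black bars for the mean and SD. The ratio of Csf2ra to the sum of Csf2rb and Csf2rb2 steps down at each stage from 1.02 ± 0.157 to 0.255 ± 0.0307, and the ratio of Il4ra to Il13ra1 steps up.

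The gene Csf1r (ENSMUSG00000024621) is annotated on chromosome 18, 61105572 to 61131139 (GRCm38). Csf1r, the receptor on which monocyte and macrophage survival depends, was at 2132, 1964 and 1899 CPM in healthy blood, 2135, 1780 and 1907 CPM in LLC blood and 1601, 1172 and 1235 CPM in LLC tumor. The blood groups overlapped and no change was called (log2 fold change -0.07 ± 0.19 SE, adjusted p 0.832, 95% interval -0.50 to 0.37). Every tumor library was below every blood library in CPM, yet the change was not called from LLC blood (log2 fold change -0.31 ± 0.19 SE, adjusted p 0.189, 95% interval -0.75 to 0.12) or from healthy blood (log2 fold change -0.38 ± 0.19 SE, adjusted p 0.11, 95% interval -0.81 to 0.06). Whether it was called in tumor depended on the scaling, the libraries and the model. Without LLC tumor 1, the library with the lowest TMM factor, it was called lower against LLC blood, at -0.56 (adjusted p 0.000915), and against healthy blood, at -0.68 (adjusted p 0.000245). With library totals only, it was called as well, at -0.54 (adjusted p 0.00349) against LLC blood. Limma-voom with quality weights also called it lower, at -0.49 (adjusted p 0.000634) against LLC blood and -0.59 (adjusted p 0.000183) against healthy blood. The other settings that called it lower against healthy blood were the replicate number as a block (adjusted p 0.0401), library totals (adjusted p 0.00211) and upper-quartile factors (adjusted p 0.0231). Its value was below 0 in all 22 alternatives of both tumor comparisons.

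The gene Csf3r (ENSMUSG00000028859) is annotated on chromosome 4, 126023441 to 126044975 (GRCm38). Csf3r, the G-CSF receptor, fell in tumor. It was at 539.9, 543 and 498 CPM in healthy blood, 488, 494 and 496 CPM in LLC blood and 136, 143 and 157 CPM in LLC tumor. LLC blood lay just below healthy blood without overlap, and the test did not call the change (log2 fold change -0.12 ± 0.09 SE, adjusted p 0.33, 95% interval -0.32 to 0.07). In tumor Csf3r fell 2.95-fold against LLC blood (log2 fold change -1.56 ± 0.09 SE, adjusted p 8.6e-07). The ratio of Csf1r to Csf3r counts was 3.95, 3.62 and 3.82 in the healthy blood libraries, 4.38, 3.61 and 3.85 in those of LLC blood and 11.8, 8.21 and 7.86 in those of LLC tumor, where it was 2.32-fold above LLC blood. Csf3r counts were not whole in 5 libraries, so some of its reads were shared with other features. Csf3r is highest in neutrophils, so the summed level of 10 neutrophil markers is given beside it. That sum was 177 to 375 CPM in healthy blood, 299 to 758 CPM in LLC blood and 204 to 480.5 CPM in LLC tumor, overlapping between all groups. Mmp8 alone supplied 167 to 180.2 CPM of it in healthy blood, and so set its level there more than its spread. S100a8 ran from 2.93 to 61.2 CPM and S100a9 from 0.929 to 90.7 CPM between the healthy blood libraries. In LLC blood Mmp8 was at 231 to 313 CPM, S100a8 at 49.9 to 217 CPM and S100a9 at 15.1 to 161 CPM. The sort kept Ly6G-negative cells. None of the 10 was at 0 throughout a group, 2 (Mmp8 and Ltf) were called higher in the blood comparison, and 3 were called lower and 1 higher in tumor against LLC blood. The marker Ly6g was not used here, and the part of neutrophil RNA in the Csf3r result was not tested.

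The gene Flt3 (ENSMUSG00000042817) is annotated on chromosome 5, 147330741 to 147400489 (GRCm38). Flt3, the receptor for FLT3 ligand, had the largest fall of the 10. It was at 42.5, 33.2 and 33.2 CPM in healthy blood, 28.4, 20.3 and 18.6 CPM in LLC blood and 2.35, 3.28 and 2.85 CPM in LLC tumor, with no overlap at either step. In tumor these levels were 26, 37 and 33 counts. Flt3 fell 1.66-fold in blood (log2 fold change -0.73 ± 0.17 SE, adjusted p 0.0124) and 6.90-fold from LLC blood to tumor (log2 fold change -2.79 ± 0.20 SE, adjusted p 3.44e-06). The blood call was lost without healthy blood 1, at -0.60 (adjusted p 0.0503), without LLC blood 2, at -0.66 (adjusted p 0.0604), and without LLC blood 3, at -0.61 (adjusted p 0.0581). Markers of dendritic cells, which express Flt3 and most of which the MHC-II-negative sort would remove, were lower as well. The 8 markers summed to 97.8 to 104 CPM in healthy blood, 41.0 to 55.2 CPM in LLC blood and 13.6 to 19.3 CPM in LLC tumor. Of the 6 tested, 5 were called lower and 0 higher in the blood comparison, beside 9.61% and 14.0% of all genes. In tumor against LLC blood 2 were lower and 1 higher, beside 31.7% and 29.6%. No marker was at 0 throughout a group. Cd209a went from 27.8 to 41.1 CPM in the blood of healthy animals to 0.177 to 0.632 CPM in tumor. Markers of granulocyte-monocyte progenitors went the other way in blood. The 7 markers summed to 11.4 to 17.2 CPM in healthy blood, 39.3 to 75.9 CPM in LLC blood and 10.2 to 31.7 CPM in LLC tumor. Of the 5 tested, 4 were called higher and 0 lower in the blood comparison, beside 23.6% of all genes called. In tumor against LLC blood 1 was higher and 4 lower, beside 61.3%. The part of dendritic cell and progenitor RNA in the Flt3 result was not tested.

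The gene Il6ra (ENSMUSG00000027947) is annotated on chromosome 3, 89869324 to 89913196 (GRCm38). Il6ra, the IL-6 binding chain, was the only member called in opposite directions at the 2 steps. It was at 356, 321 and 269 CPM in healthy blood, 469, 522 and 554 CPM in LLC blood and 149, 154 and 162 CPM in LLC tumor. All LLC blood libraries lay above all others and all tumor libraries below all others. It rose 1.60-fold in blood (log2 fold change 0.68 ± 0.12 SE, adjusted p 0.00443), fell 2.89-fold from LLC blood to tumor (log2 fold change -1.53 ± 0.13 SE, adjusted p 7.68e-06) and was lower in tumor than in healthy blood (log2 fold change -0.85 ± 0.12 SE, adjusted p 0.000248). Its signalling partner Il6st, which encodes gp130, was also highest in LLC blood, but in tumor it overlapped healthy blood. Il6st was at 119, 122 and 115 CPM in healthy blood, 225, 280.3 and 251 CPM in LLC blood and 82.3, 133 and 123 CPM in LLC tumor. It rose 2.09-fold in blood (log2 fold change 1.06 ± 0.11 SE, adjusted p 0.000292) and fell 1.97-fold in tumor (log2 fold change -0.98 ± 0.11 SE, adjusted p 4.92e-05). Both steps rest on the same LLC blood libraries. The ratio of Il6ra to Il6st counts was 2.65 ± 0.332, 2.05 ± 0.175 and 1.43 ± 0.340 (SD, n = 3, groups in the same order), lower without overlap at each step and 1.88-fold lower in tumor than in healthy blood.

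The gene Il4ra (ENSMUSG00000030748) is annotated on chromosome 7, 125552271 to 125579474 (GRCm38). Il4ra, the chain common to the receptors for IL-4 and IL-13, had the largest rise of the 10 in blood and from healthy blood to tumor, while from LLC blood to tumor Csf2rb2 rose more. It was at 132, 159 and 144 CPM in healthy blood, 284, 353 and 336 CPM in LLC blood and 699, 661 and 641 CPM in LLC tumor, with wide gaps between the groups. It rose 2.19-fold in blood (log2 fold change 1.13 ± 0.14 SE, adjusted p 0.000707), 2.39-fold from LLC blood to tumor (log2 fold change 1.25 ± 0.14 SE, adjusted p 4.54e-05) and 5.23-fold from healthy blood to tumor (log2 fold change 2.39 ± 0.14 SE, adjusted p 9.72e-07). Il13ra1, which forms the type II receptor, was at 217 ± 7.04, 261 ± 36.6 and 289 ± 58.4 CPM (SD, n = 3, groups in the same order) and was called at neither step. Il2rg, the common gamma chain of the type I receptor, was at 179.5, 205 and 192 CPM, then 139, 117 and 133 CPM, then 145, 95.2 and 104 CPM in the libraries of the 3 groups and was called at neither step. In tumor against healthy blood Il13ra1 was called higher (log2 fold change 0.62 ± 0.20 SE, adjusted p 0.0227) and Il2rg lower (log2 fold change -0.54 ± 0.21 SE, adjusted p 0.044). Neither call held without healthy blood 1, 2 or 3 (adjusted p 0.0539 to 0.0713 for Il13ra1 and 0.0627 to 0.0889 for Il2rg), and that of Il2rg was also lost without LLC blood 1 or 3 or LLC tumor 2 or 3 (adjusted p 0.0526 to 0.143) and with DESeq2 size factors. The ratio of Il4ra to Il13ra1 counts was 0.630, 0.713 and 0.661, then 1.30, 1.25 and 1.19, then 1.96, 2.61 and 2.50 in the libraries of the 3 groups, a rise of 1.87-fold and a further 1.88-fold.

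The gene Il10ra (ENSMUSG00000032089) is annotated on chromosome 9, 45253837 to 45269149 (GRCm38). Il10ra, the IL-10 binding chain, stepped down in CPM without a call at either step. It was at 695, 579.8 and 634 CPM in healthy blood, 554, 417 and 465 CPM in LLC blood and 391, 289.5 and 334 CPM in LLC tumor. The groups did not overlap. The test called no change in blood (log2 fold change -0.44 ± 0.19 SE, adjusted p 0.127, 95% interval -0.86 to -0.01) or from LLC blood to tumor (log2 fold change -0.28 ± 0.19 SE, adjusted p 0.227, 95% interval -0.70 to 0.15), but Il10ra was called 1.64-fold lower in tumor than in healthy blood (log2 fold change -0.71 ± 0.19 SE, adjusted p 0.00813). Without LLC tumor 1, both steps were called, at -0.49 (adjusted p 0.0139) and -0.49 (adjusted p 0.0123). That library is not in the blood comparison, but the filter, the TMM factors and the spread were fitted again without it. The median log2 fold change of all genes in the blood comparison moved from -0.0092 to -0.060. Limma-voom called both steps as well (adjusted p 0.00468 and 0.0139), as did the replicate block (adjusted p 0.0258 and 0.0475). A fit of only the 6 libraries compared called the blood step (adjusted p 0.0139), and library totals called the tumor step (adjusted p 0.0087). Lymphocytes also express Il10ra. In the blood comparison 5 T cell markers and 5 NK cell markers were called lower, all of those tested, beside 9.61% of all genes. Of 2 B cell markers tested, Cd79b was lower while Cd22 was not called. The 6 T cell markers summed to 31.1 to 137 CPM in healthy blood but 3.04 to 4.59 CPM in LLC blood, and the 5 NK cell markers to 139 to 309 CPM but 20.8 to 36.5 CPM, with none at 0 throughout a group. The 6 B cell markers summed to 23.2 to 191 CPM and 31.9 to 38.2 CPM, which overlap, with Pax5 at 0 in LLC blood. Their part in the Il10ra values was not tested. The partner chain Il10rb, at 97.3 ± 1.48, 89.6 ± 2.61 and 156 ± 12.2 CPM in the 3 groups, rose from LLC blood to tumor (log2 fold change 1.02 ± 0.13 SE, adjusted p 9.81e-05). The ratio of Il10ra to Il10rb counts went from 6.54 ± 0.606 to 5.33 ± 0.648 to 2.16 ± 0.161 (SD, n = 3). The blood groups overlapped in this ratio, and the tumor libraries all lay below them.

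**Figure D3:**
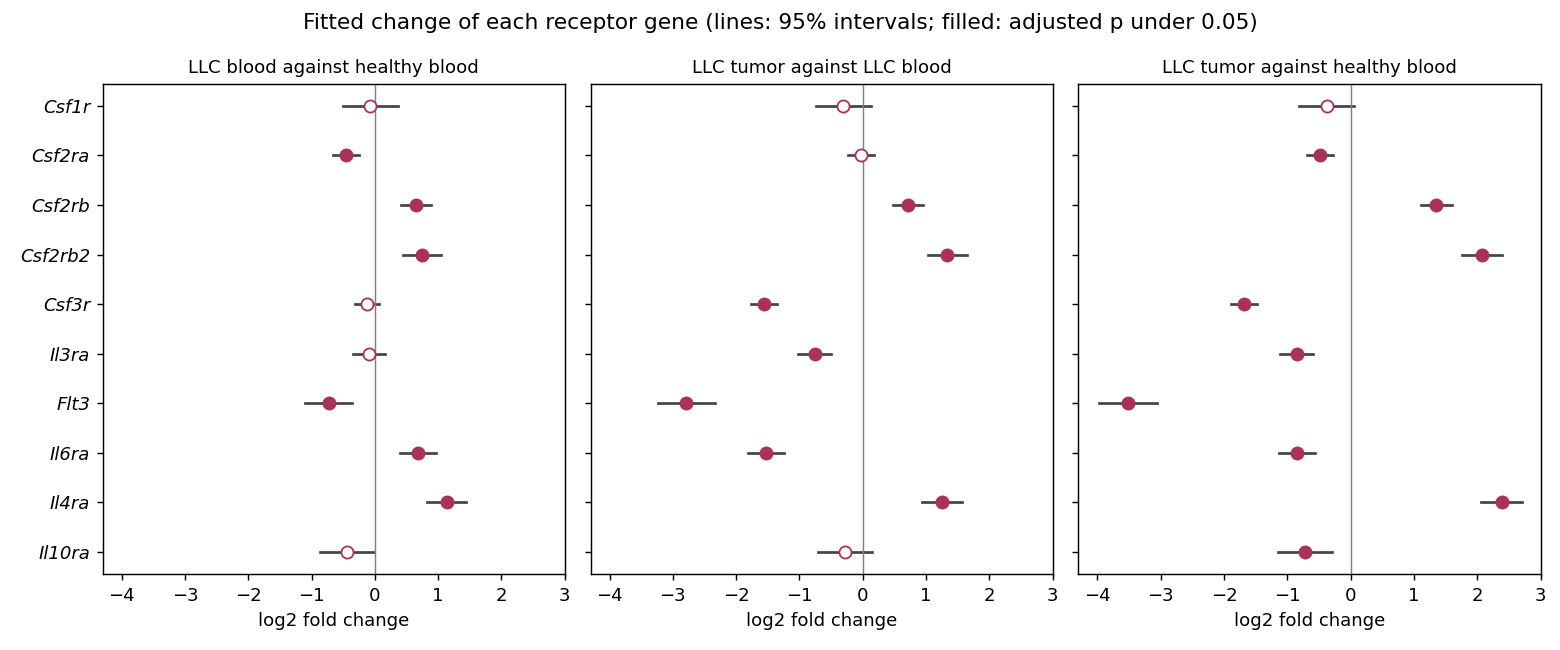
Fitted log2 fold change (x axis) of each receptor gene (y axis) in the 3 comparisons, with lines for 95% intervals, filled points for an adjusted p under 0.05 and open points otherwise. Il4ra, Csf2rb and Csf2rb2 lie to the right of 0 in every comparison, Il6ra crosses from right to left between the first and the second, and Flt3 reaches -3.51 in LLC tumor against healthy blood.

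The ligands of these receptors were scarce in blood and several were higher in tumor. Of 12 ligand genes 6 passed the low-count filter, and in LLC tumor against LLC blood 5 were called higher and 1 lower, beside 29.6% and 31.7% of all genes. In the blood comparison 0 were higher and 1 lower, beside 23.6% of all genes called. Csf1, the main ligand of Csf1r, was at 9.08, 9.15 and 6.19 CPM in healthy blood, 5.16, 3.80 and 3.57 CPM in LLC blood and 29.0, 54.0 and 56.4 CPM in LLC tumor. It fell in blood (log2 fold change -1.01 ± 0.24 SE, adjusted p 0.0159) and rose 12.7-fold from LLC blood to tumor (log2 fold change 3.67 ± 0.24 SE, adjusted p 1.99e-06). The first of these did not pass the threshold when healthy blood 1 or 2 or LLC blood 2 or 3 was left out (-0.97 to -0.90, adjusted p 0.0541 to 0.0779). Il34, the other Csf1r ligand, had 0 counts in every LLC blood library and was at 2.17, 9.31 and 8.12 CPM in tumor, at least 30.7-fold higher, with 3 counts per library taken as the floor. Flt3l, the ligand of Flt3 and named after its values were seen, was the ligand called lower in tumor against LLC blood (log2 fold change -0.70 ± 0.14 SE, adjusted p 0.0021). Il6 had at most 2 counts in any blood library and 88, 73 and 77 counts in the tumor libraries. Il10 had at most 5 counts in any blood library and 96, 15 and 26 counts in the tumor libraries, so LLC tumor 1 held most of them. Csf3, which encodes G-CSF and did not pass the filter, had 0 counts in LLC blood and 5, 34 and 25 in tumor, and Csf2, which encodes GM-CSF, had at most 1 count in any blood library and 0, 6 and 1 in tumor.

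Summed markers of other cells were higher in the tumor libraries beside these ligands. The 4 fibroblast markers summed to 5.59 to 15.2 CPM in healthy blood, 3.25 to 405 CPM in LLC blood, where LLC blood 1 held the upper value, and 736 to 3340 CPM in LLC tumor. The 4 epithelial and tumor cell markers summed to 1.35 to 2.00 CPM, 1.84 to 2.73 CPM and 63.1 to 101.3 CPM, and the 4 endothelial markers to 0.981 to 1.54 CPM, 1.31 to 1.79 CPM and 10.1 to 14.0 CPM. None of these was at 0 throughout the tumor group. Col3a1 made up most of the fibroblast sum in tumor, at 713 to 3099 CPM. Col1a1 was at 212 CPM in LLC blood 1 and at no more than 129 CPM in tumor, and Pdgfrb overlapped between the groups. In tumor against LLC blood 1 of 4 fibroblast markers tested, Col3a1, all 3 epithelial and both endothelial markers tested were called higher. Of all genes, 29.6% were called higher there. The part of such cells in the ligand values was not tested. Macrophage markers, 8 genes including Mrc1 and the complement genes C1qa, C1qb and C1qc, summed to 1306 to 1520 CPM, 731 to 768 CPM and 1489 to 2320 CPM in the 3 groups. In tumor against LLC blood 6 were called higher and 1 lower, beside 29.6% and 31.7% of all genes. In the blood comparison 5 were called lower and 0 higher, beside 9.61% and 14.0%. The 1 lower in tumor was Adgre1, at 294 ± 4.02, 329 ± 16.3 and 191 ± 24.7 CPM (SD, n = 3) in the 3 groups. Apoe, the highest of the 8 in healthy blood, was at 1026 ± 96.1, 330 ± 28.3 and 716 ± 222 CPM.

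**Figure D4:**
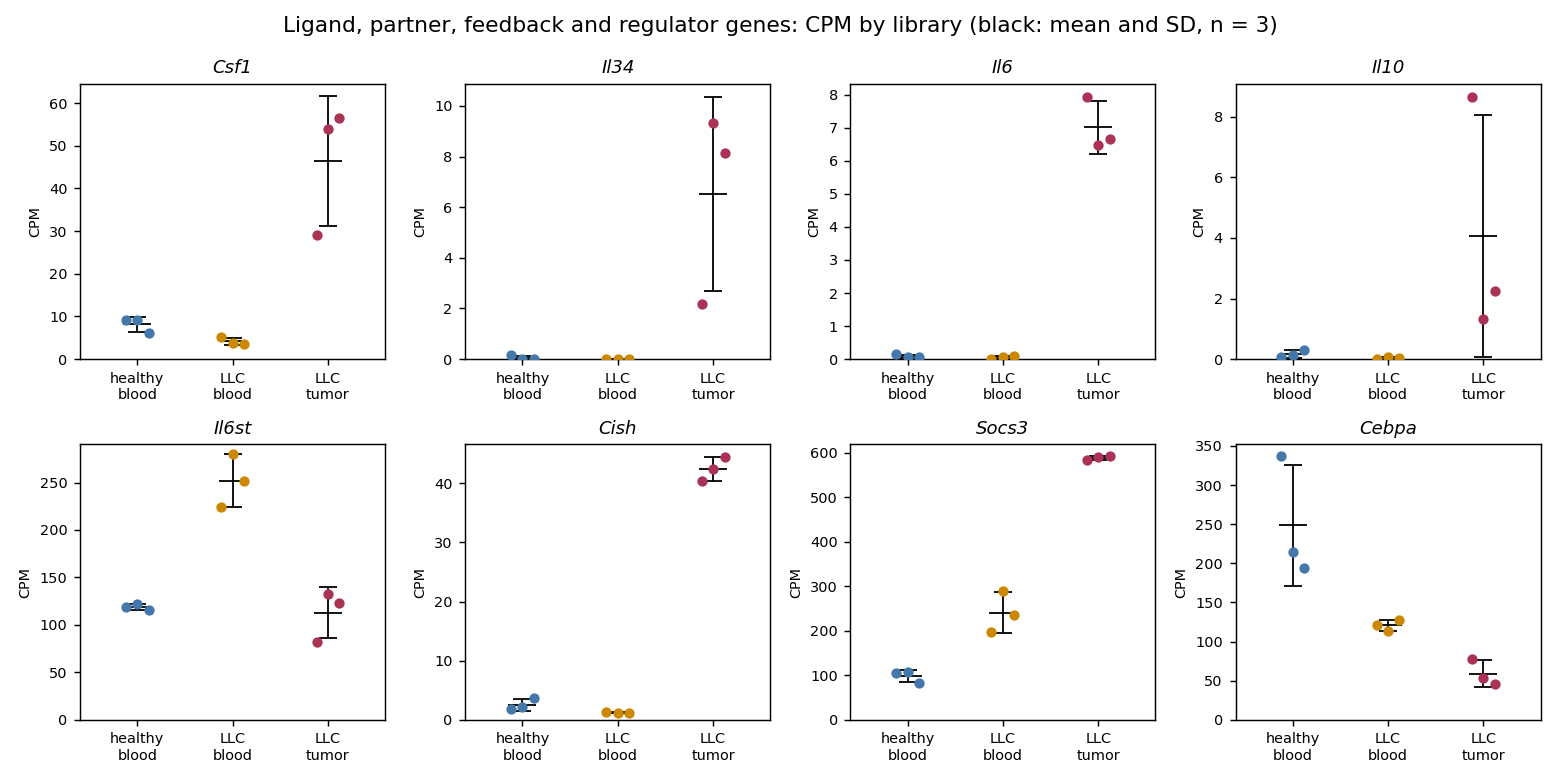
CPM (y axis, linear, from 0) of 8 ligand, partner, feedback and regulator genes in the 3 libraries of each group (x axis), with 1 point per library and black bars for the mean and SD. Csf1, Il34, Il6, Il10 and Cish are near the bottom in all blood libraries and present in tumor, Il6st is highest in LLC blood, Socs3 steps up at each stage and Cebpa steps down.

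Among 20 genes that carry the signal inside the cell, 6 were called higher and 0 lower in the blood comparison, beside 23.6% of all genes called (median log2 fold change 0.23), and 3 were higher and 10 lower in LLC tumor against LLC blood, beside 61.3% (median -0.36). Jak2, the kinase bound to the beta chains, was at 122 ± 3.35, 144 ± 14.4 and 296 ± 9.76 CPM (SD, n = 3) and rose in tumor against LLC blood (log2 fold change 1.25 ± 0.12 SE, adjusted p 1.94e-05). Tyk2, a kinase of the IL-10 and IL-6 receptors, rose in blood (log2 fold change 0.49 ± 0.07 SE, adjusted p 0.00174) and fell in tumor (log2 fold change -1.25 ± 0.07 SE, adjusted p 9.76e-07). Jak3, the kinase of the common gamma chain, rose in blood (log2 fold change 0.73 ± 0.14 SE, adjusted p 0.00618) and was not called at the second step. Pik3cd and Plcg2, a lipid kinase subunit and a phospholipase, fell in tumor by 2.57-fold (adjusted p 4.29e-06) and 2.33-fold (adjusted p 8e-06).

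Of 15 genes that damp these receptors, 3 were called higher and 3 lower in the blood comparison, beside 23.6% of all genes called. In LLC tumor against LLC blood 6 were higher and 8 lower, beside 29.6% and 31.7% of all genes. Cish, a SOCS family gene induced through STAT5 by the beta chain cytokines, was at 1.86, 2.09 and 3.68 CPM in healthy blood, 1.24, 1.11 and 1.21 CPM in LLC blood and 40.4, 42.4 and 44.4 CPM in LLC tumor. Its rise from LLC blood was 40.8-fold (log2 fold change 5.35 ± 0.24 SE, adjusted p 3.12e-07), beside a fall in blood (log2 fold change -1.13 ± 0.27 SE, adjusted p 0.0151) that did not pass the threshold without LLC blood 2 or 3 (adjusted p 0.063 and 0.0597). Socs3, which blocks gp130 and the G-CSF receptor, was at 105, 107 and 83.7 CPM in healthy blood, 197, 289.6 and 236 CPM in LLC blood and 583, 589.8 and 593 CPM in LLC tumor. It rose in blood (log2 fold change 1.26 ± 0.16 SE, adjusted p 0.000779) and again 2.82-fold in tumor (adjusted p 3.35e-05), with no overlap between groups. Cbl, a ubiquitin ligase that sends Csf1r for degradation, was at 35.6, 39.1 and 30.1 CPM in healthy blood, 261, 323 and 313 CPM in LLC blood and 143, 179 and 167 CPM in LLC tumor. Its rise in blood (log2 fold change 3.07 ± 0.12 SE, adjusted p 6.28e-06) falls between the groups that the 4 entries at 0 also separate, and the part of gene models in it was not tested. Ptpn6, which encodes the phosphatase SHP-1, fell in tumor (log2 fold change -1.28 ± 0.11 SE, adjusted p 9.62e-06).

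Of 12 transcription factors known to act on receptor genes of this kind, 0 were called higher and 5 lower in the blood comparison, where 9.61% of all genes were lower (median log2 fold change -0.41). In LLC tumor against LLC blood 6 were higher and 4 lower, beside 61.3% of all genes called (median 0.84). Cebpa, which activates Csf3r in granulocyte and monocyte development, was at 337, 215 and 194 CPM in healthy blood, 122, 113 and 128 CPM in LLC blood and 78.2, 53.5 and 45.6 CPM in LLC tumor. It was called lower in blood (log2 fold change -1.07 ± 0.28 SE, adjusted p 0.0233) and in tumor against LLC blood (log2 fold change -0.80 ± 0.28 SE, adjusted p 0.0341). The blood call was lost without healthy blood 1 (-0.78) or any single LLC blood library, and the tumor call without LLC blood 1 or 3 or LLC tumor 2 or 3 (-0.81 to -0.60). Cebpb, the inflammatory member of that family, fell in blood (log2 fold change -0.52 ± 0.10 SE, adjusted p 0.00612) and rose in tumor (log2 fold change 1.48 ± 0.10 SE, adjusted p 2.62e-06).

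Genes that these receptors induce were mostly higher in tumor: of 11 tested, 10 were called higher and 1 lower in LLC tumor against LLC blood, where 29.6% of all genes were higher and 31.7% lower. In the blood comparison 0 were higher and 3 lower, beside 23.6% of all genes called, and the median log2 fold changes of the 2 comparisons were 3.14 and -0.87. Arg1, an arginase induced by IL-4, was at 15.0, 4.61 and 7.17 CPM in healthy blood, 6.69, 2.91 and 2.80 CPM in LLC blood and 2581, 1756 and 1333 CPM in LLC tumor (log2 fold change 9.15 ± 0.63 SE, adjusted p 2.75e-06). Mrc1, the mannose receptor and also an IL-4 target, fell in blood (log2 fold change -1.70 ± 0.26 SE, adjusted p 0.0023) and rose in tumor (log2 fold change 6.04 ± 0.29 SE, adjusted p 3.68e-07). Mrc1 is also among the macrophage markers above. The gene called lower in tumor against LLC blood was Chil3, named after its values were seen. It was at 3605 ± 247, 2999 ± 127 and 1224 ± 121 CPM (SD, n = 3) in the 3 groups and is also among the Ly6C-high monocyte markers. Retnla, the other gene on the list, did not pass the filter. Of 5 genes of receptor shedding, 1 was called higher and 0 lower in blood, and 4 higher and 0 lower in tumor against LLC blood, beside 23.6% and 61.3% of all genes called. Adam17, the protease that releases soluble IL-6 and CSF1 receptors, was at 189 ± 7.44, 223 ± 13.5 and 256 ± 7.41 CPM (SD, n = 3) and rose from LLC blood to tumor (log2 fold change 0.41 ± 0.11 SE, adjusted p 0.00898).

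Of 15 partner chains and sister receptors, including those named above, 11 were tested. In blood 2 of them, Il6st and Lifr, were called higher and 0 lower, beside 23.6% of all genes called, and in tumor against LLC blood 3 were higher and 4 lower, beside 61.3%. Lifr, the leukemia inhibitory factor receptor that like Il6ra uses gp130, was at 47.5 ± 4.44, 68.3 ± 2.10 and 14.1 ± 2.35 CPM (SD, n = 3). It rose in blood (log2 fold change 0.50 ± 0.15 SE, adjusted p 0.0366), a result that passed in 0 of the 6 fits without a library of that comparison (adjusted p 0.0559 to 0.125). It fell in tumor against LLC blood (log2 fold change -2.07 ± 0.16 SE, adjusted p 4.66e-06). Kit, a receptor tyrosine kinase of the family of Flt3 and Csf1r, did not pass the filter.

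Likeness of profile was measured as the root mean square difference over the 9 libraries between log2(CPM + 1) values centred on each gene's own mean, among 6903 genes whose mean was 20 CPM or more, with no test. Csf2rb2 was the nearest member to Il4ra, at 0.18, the fifth nearest of all genes, and the nearest of all genes to Csf2rb2 were Ric1 (0.092) and Itgam (0.10), the second of which encodes the sorting marker CD11b. For Csf3r they were Pik3r6 (0.057) and Ccnd3 (0.062), and for Csf1r Tspyl1 (0.062) and Yipf1 (0.081). Flt3 was nearest to Galnt9 (0.17) and Cyp27a1 (0.18), with a range over the libraries of 3.70 on the log2 scale. Il6ra was nearest to Akap13 (0.12) and 6530402F18Rik (0.12), Il10ra to Neurl3 (0.071) and Supt4a (0.087), and Csf2rb to Aars (0.092) and Chd2 (0.099).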

How the data were processed

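RNA-seq libraries were made with a TruSeq kit from TRIzol RNA and sequenced on a HiScanSQ instrument, per the labels' protocols. The authors deposited a table of estimated counts per gene symbol (expected counts, not normalized) and a table of CPM for 10693 of these genes. STAR 2.6.1d, Salmon 1.9.0 and edgeR are named in the submitters' processing notes with the build mm10, without roles; the annotation is not given in the sources used here. The column heads of blood libraries carry the letters BM, read as blood monocyte from the sample titles. Divided by the worth of 1 read, 100% of the deposited CPM values came out whole (within 0.01 read) and equalled the rounded counts. The count test on those reads, for the 10520 genes that passed its filter, called 2584, 6792 and 7236 genes in the 3 comparisons.

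Counts were rounded and fitted for all 9 libraries in edgeR 4.0.16 (R 4.3.3; quasi-likelihood test, group as the only term, TMM, filterByExpr, 12337 genes kept). P-values were adjusted by Benjamini-Hochberg over all genes tested in a comparison. Ratios were compared by exact permutation in SciPy 1.17.1. DESeq2 1.42.0 and limma 3.58.1 served as alternatives, with other scalings, filters and thresholds, unrounded counts, a replicate block and libraries left out in turn. RefSeq coordinates are GRCm38, the assembly that mm10 names. All 10 members were named. From each context list at most 4 called genes with the largest change and a mean of at least 20 CPM could be named, together with the members' direct partners. Members, lists and tests were chosen with earlier results of these data known.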

Additional observations from a re-analysis of the deposited data

How the results depend on the processing

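Of 657 fold changes of members under an alternative, 634 kept their direction and their side of the threshold, 3 lost a call, 16 gained a call and 4 turned sign; where no reason is given, the cause was not tested. All 3 lost calls were Flt3 in LLC blood against healthy blood, and every gained call was of Csf1r or Il10ra. The sign turned for Csf2ra in LLC tumor against LLC blood: 0.031 with DESeq2 size factors, 0.0039 with only the 6 libraries compared, 0.022 with DESeq2 and 0.0015 without LLC tumor 1, where leaving out single libraries gave -0.064 to 0.0015. The ratio of Csf1r to Csf3r between the blood groups turned to -0.026 without LLC blood 1, the lowest of the values without single libraries, which reached 0.11. In LLC blood against healthy blood, 1 member was called lower at an adjusted p under 0.01, and with a change of 2-fold or more also required there was 1 called member, 1 higher and 0 lower. That threshold left 5 called members in LLC tumor against healthy blood, 2 of them lower. Leaving out single libraries gave 5 to 7 called members in LLC blood against healthy blood (4 higher throughout, 1 to 3 lower), 7 to 9 in LLC tumor against LLC blood (3 higher, 4 to 6 lower) and 9 to 10 in LLC tumor against healthy blood (3 higher, 6 to 7 lower). Reads recovered from the CPM table and the summed beta chains were alternatives chosen after the data had been seen.

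The labels give no sign that a replicate number marks a shared mouse or day. Same-numbered libraries did not deviate together in every pair (correlations of deviations -0.14 to 0.30, beside -0.31 to 0.17 for differently numbered libraries). Whether libraries were paired was not tested. With the replicate block Il10ra was called in blood (-0.45, adjusted p 0.0258) and from LLC blood to tumor (-0.30, adjusted p 0.0475), and Csf1r in tumor against healthy blood (-0.41, adjusted p 0.0401), and the count of called members was 7, 8 and 10 in the 3 comparisons. Depth limits Flt3 in tumor, at 26 to 37 counts per library, and the ligand genes with a few counts in blood.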
